A study of Mus musculus with 10 samples.

Results

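The cortical layer and projection neuron genes described here are 34 genes chosen by name, 9 of the upper layers 2 to 4, 2 of layer 4, 7 of layer 5, 10 of layer 6 or the subplate and 6 that mark several layers. They were read in the cortex of 5 WT and 5 Crtc1-/- (KO) mice on Affymetrix GeneChip Mouse Genome arrays, 1 array per mouse. All 10 mice were untreated C57BL/6N females, adult, 2 months of age by the labels, and the WT mice were littermates of animals lacking Crtc1, a coactivator of the transcription factor CREB. The cells in which Crtc1 was deleted and the part of the gene removed are not given in the sources used here, and neither is the region of cortex taken. Of the 34 genes, 33 had a probe set whose annotation named no other gene, out of 18193 genes so measured, and the brightest such probe set stood for each gene. The exception was Etv1, a layer 5 transcription factor, whose 3 probe sets each also named a second gene.

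Excitatory neurons of the neocortex are stacked in layers that differ in where their axons go. Neurons of the upper layers project mainly within the cortex, including to the other hemisphere through the corpus callosum, layer 4 receives input from the thalamus, layer 5 sends axons to the striatum, brainstem and spinal cord, and layer 6 sends them to the thalamus. The subplate is a thin set of early-born neurons beneath layer 6. These fates are set during development by transcription factors that repress each other, among them Fezf2 and Bcl11b for layer 5 and Tbr1 and Sox5 for layer 6, and many of these genes stay on in the adult. In whole tissue, fewer cells of a layer and less RNA per cell cannot be told apart.

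Crtc1 itself checked the labels. Its brightest probe set read 9.51 to 9.86 in the WT mice and 5.96 to 6.60 in the KO mice on the log2 scale, and the groups did not overlap. Array medians differed by at most 0.032 (log2), and any pair of arrays correlated at 0.994 to 0.998 over probe sets.

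Across all layer genes, 1 of 33 changed with genotype. Rasgrf2 rose in the KO mice and no member fell (limma, adjusted p under 0.05 with Benjamini-Hochberg correction over 18193 genes). Over all genes 0.764% were called, 0.308% higher and 0.456% lower in the KO mice. The median log2 fold change, KO minus WT, was −0.0063 over the 33 members and −0.0030 over all genes, with 14 members above 0 and 19 below. The median size of the change, whatever its sign, was 0.080 in the members and 0.051 in all genes on the log2 scale. 8 members, or 24.2%, had an unadjusted p under 0.05 against 9.86% of all genes and 11.1% of the 13200 genes not among the dimmest probe sets, 3 of them higher and 5 lower in the KO mice. 2 members, or 6.06%, had WT and KO arrays that did not overlap, Rasgrf2 and Neurod6, against 3.14% of all genes. The members were chosen with earlier results of these data known, so these shares are descriptions and not a result about layer genes. They were also brighter, at a median percentile of 89.5 among probe sets against 65.5 for all genes.

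**Figure D1:**
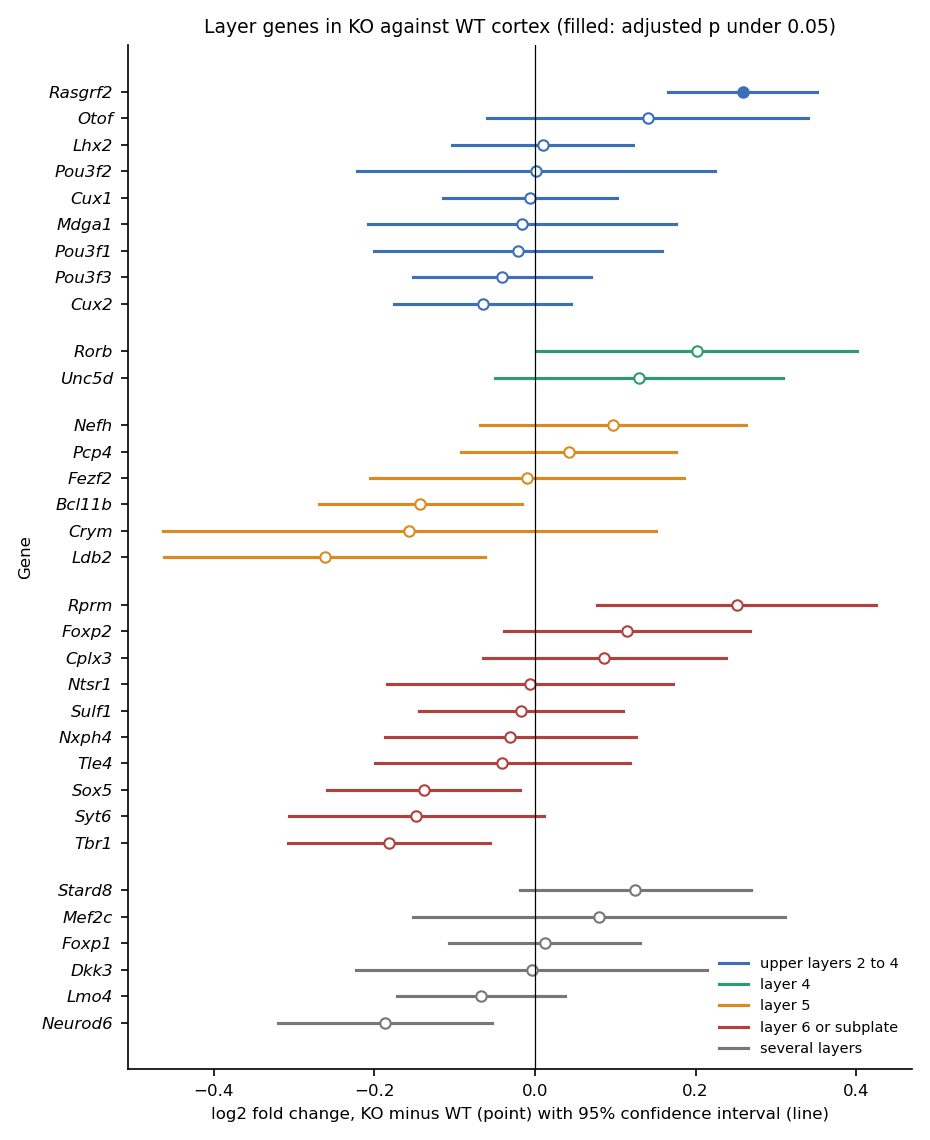
Log2 fold change of the 33 layer genes, KO minus WT, with the 95% confidence interval from limma as a line, 5 mice per genotype, grouped and coloured by layer. The filled point, Rasgrf2 at 0.26, is the gene with an adjusted p under 0.05, and the open points lie between −0.26 and 0.25.

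Of the 9 upper-layer genes, Rasgrf2 rose and the other 8 did not pass. The median log2 fold change of the 9 was −0.0063, with 4 above 0 and 5 below. Rasgrf2, a calcium-responsive exchange factor for Ras and Rac that marks layer 2 and 3 neurons, read 11.29, 11.33, 11.24, 11.26 and 11.25 in the WT mice and 11.52, 11.55, 11.43, 11.54 and 11.61 in the KO mice (log2 values). Every KO mouse lay above every WT mouse. Rasgrf2 averaged 11.28 ± 0.036 (SD, n = 5) in WT and 11.53 ± 0.065 (SD, n = 5) in KO cortex. The log2 fold change was 0.26 with a standard error of 0.042, or 1.20-fold (95% confidence interval 1.12 to 1.28, adjusted p = 0.0152 from limma). The exact permutation test over the 10 mice gave a two-sided p of 0.00794, the smallest that 5 against 5 allows.

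The other probe sets of Rasgrf2 were dimmer and moved less. Their log2 fold changes were 0.17 and 0.078, so that all 3 probe sets lay above 0. With the mean of the 3 in place of the brightest, the log2 fold change was 0.17 and the call was lost (adjusted p = 0.137 from limma). It was also lost with the replicate number as a block (adjusted p = 0.0876 from limma). It was kept in each of the 10 fits that left out 1 array (adjusted p 0.0123 to 0.0474).

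Otof, which encodes the vesicle calcium sensor otoferlin and is found in superficial layer 2 and 3 neurons, read 6.21, 6.29, 6.01, 5.96 and 6.08 in the WT mice and 6.14, 6.02, 6.47, 6.41 and 6.21 in the KO mice. The groups overlapped (log2 fold change 0.14, adjusted p = 0.707 from limma). Cux2, a homeobox factor that controls dendrite and spine formation in upper-layer neurons, read 10.08, 10.14, 10.09, 9.99 and 9.98 in the WT mice and 10.11, 9.92, 9.94, 10.03 and 9.95 in the KO mice. Its values overlapped as well, with a log2 fold change of −0.065 (adjusted p = 0.780 from limma).

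The 6 remaining upper-layer genes had log2 fold changes between −0.041 and 0.0094. They were Cux1, a homeobox relative of Cux2, the POU-domain factors Pou3f1, Pou3f2 and Pou3f3, Mdga1, a membrane-anchored adhesion protein, and Lhx2, a LIM-homeobox factor. Cux1 was read by 9 probe sets, the most of any member, which spanned −0.095 to 0.11 with 3 above 0 and 6 below. Pou3f2 was read by 3 probe sets, none of them dim, which spanned −0.21 to 0.024 with 2 above 0 and 1 below. The lowest of these had an adjusted p of 0.274 over all probe sets (limma). Pou3f1 had a spread of 0.20 (SD, n = 5) in the WT mice and 0.0062 (SD, n = 5) in the KO mice around nearly the same mean, 9.29 and 9.27. Mdga1 was dim, at 3.81 to 4.27 over all arrays, and was the 1 member among the dimmest 40% of probe sets.

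**Figure D2:**
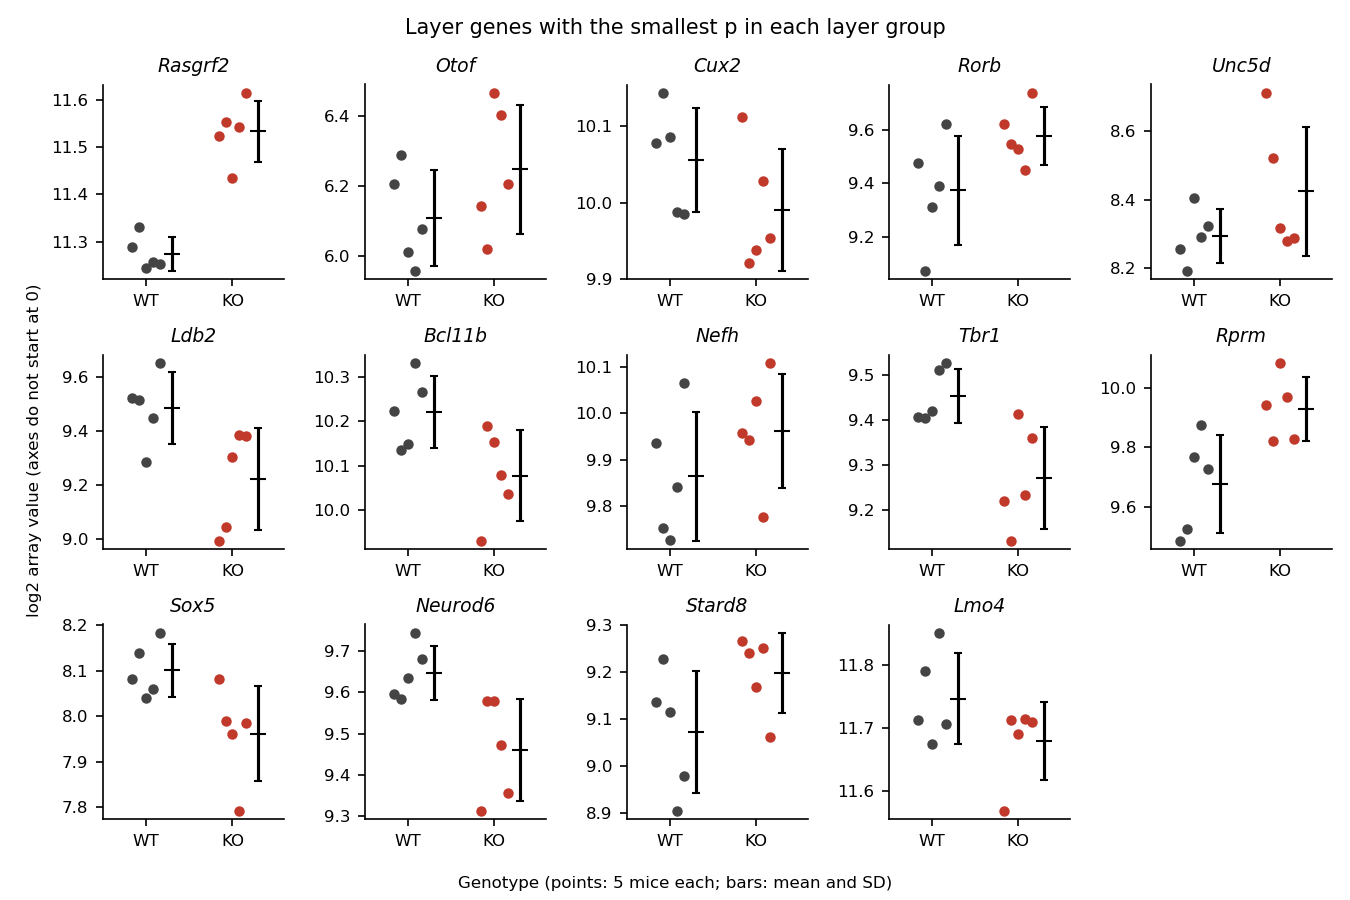
Log2 value in each mouse of 14 layer genes, up to 3 with the smallest p in each layer group, with points for the 5 WT and 5 KO mice and bars for the mean and SD. The groups do not overlap for Rasgrf2, where the KO mice are higher, and for Neurod6, where they are lower.

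Both layer 4 genes had means above WT in the KO mice, and neither passed the test. Rorb, the nuclear receptor that directs layer 4 identity and barrel formation, read 9.47, 9.07, 9.31, 9.39 and 9.62 in the WT mice and 9.62, 9.55, 9.53, 9.45 and 9.74 in the KO mice. WT replicates 1 and 5 reached into the KO range, and the log2 fold change was 0.20 (95% confidence interval 0.0018 to 0.40, adjusted p = 0.501 from limma). All 3 Rorb probe sets lay above 0, between 0.20 and 0.33.

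Unc5d, a netrin receptor family member found in layer 4, read 8.26, 8.19, 8.40, 8.29 and 8.32 in the WT mice and 8.71, 8.52, 8.32, 8.28 and 8.29 in the KO mice. Replicates 1 and 2 of the KO group were above all WT mice, and the other KO mice were within the WT range (log2 fold change 0.13, adjusted p = 0.691 from limma). Unc5d is on chromosome 8 with Crtc1, 549 genes away in the order of genes of GRCm38.p6, and was the only member on that chromosome.

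The 6 measured layer 5 genes had a median log2 fold change of −0.077, with 2 above 0 and 4 below, and none passed. That median was −0.010 without WT replicate 4, −0.036 without KO replicate 1, −0.048 without WT replicate 5 and 0.0050 with the mean of hippocampal markers in the fit. It was further below 0 without WT replicate 1, at −0.11, and with the mean of oligodendrocyte markers in the fit, at −0.18. Ldb2, a cofactor that joins LIM-domain transcription factors into complexes and marks layer 5 projection neurons, read 9.52, 9.52, 9.29, 9.45 and 9.65 in the WT mice and 8.99, 9.05, 9.30, 9.39 and 9.38 in the KO mice. 4 WT mice were above all KO mice, and 1 WT mouse was below 3 of them. Its log2 fold change of −0.26 was the lowest of all members (standard error 0.091, unadjusted p = 0.0145, adjusted p = 0.328, both from limma). The 3 probe sets lay between −0.37 and −0.24.

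Bcl11b, known as Ctip2, a zinc finger factor needed for corticospinal axons and also expressed in the striatum, read 10.22, 10.14, 10.15, 10.33 and 10.26 in the WT mice and 9.93, 10.19, 10.15, 10.08 and 10.04 in the KO mice. 3 KO mice lay below all WT mice. The log2 fold change was −0.14 (adjusted p = 0.425 from limma), and all 4 probe sets lay below 0, between −0.21 and −0.14. Nefh, the neurofilament heavy chain of large axons, read 9.94, 9.75, 9.73, 9.84 and 10.06 in the WT mice and 9.96, 9.94, 10.03, 9.78 and 10.11 in the KO mice, which overlapped (log2 fold change 0.097, adjusted p = 0.781 from limma).

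Of the other layer 5 genes, Fezf2, which specifies neurons that project below the cortex, was level at −0.010 (log2 fold change). Pcp4, a calmodulin regulator, was at 0.042. Crym, a thyroid hormone binding protein, was at −0.16 with the widest interval of all members, −0.46 to 0.15, and its WT mice ran from 8.07 to 8.92. The mean of the layer 5 genes was spread among the WT mice, at 9.85 to 10.08, and the KO mice lay at 9.76 to 9.94. Bcl11b, Crym and Pcp4 are also striatal genes, and the mean of 10 striatal markers ran from 7.03 to 7.62 in the WT mice and from 7.09 to 7.43 in the KO mice. With that mean in the fit, Ldb2 was at −0.25 and Bcl11b at −0.13 on the log2 scale.

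**Figure D3:**
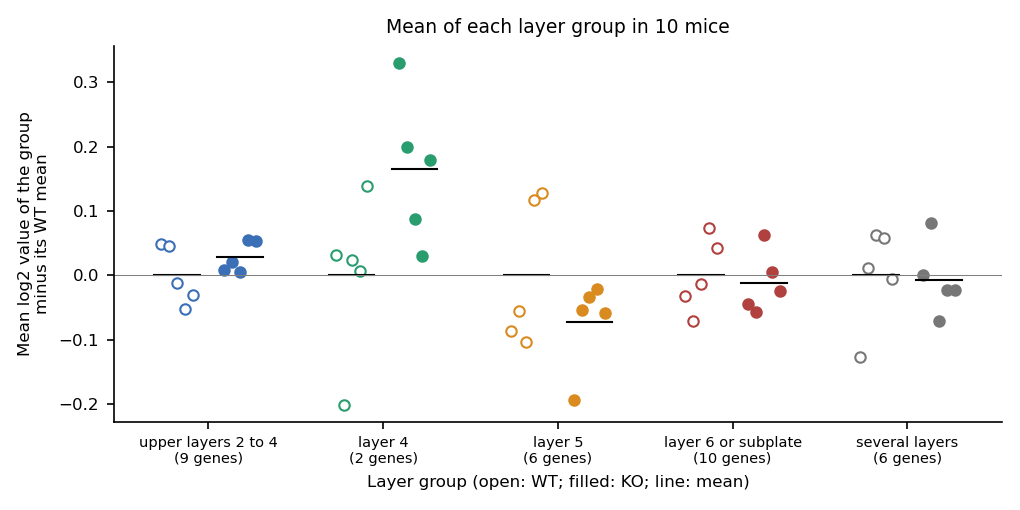
Mean log2 value of the genes of each layer group in each mouse, minus the mean of the WT mice, with open points for WT, filled points for KO and lines for the group means. WT and KO mice overlap in every layer group. The layer 4 group holds 2 genes and has the largest difference of means, 0.17.

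The 10 layer 6 or subplate genes had a median log2 fold change of −0.024, with 3 above 0 and 7 below, and none passed. Tbr1, the T-box factor of corticothalamic neurons, read 9.41, 9.40, 9.42, 9.51 and 9.52 in the WT mice and 9.22, 9.13, 9.41, 9.23 and 9.36 in the KO mice. 4 KO mice lay below all WT mice. The log2 fold change was −0.18 (standard error 0.057, unadjusted p = 0.00834, adjusted p = 0.267, both from limma).

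Rprm, which encodes reprimo, a p53-induced regulator of the cell cycle that marks layer 6 neurons in adult cortex, went the other way. It read 9.49, 9.53, 9.77, 9.87 and 9.73 in the WT mice and 9.94, 9.82, 10.08, 9.97 and 9.83 in the KO mice. Replicate 4 of the WT group reached into the KO range, and the log2 fold change was 0.25 (unadjusted p = 0.00860, adjusted p = 0.269, both from limma).

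Sox5, an SRY-box factor that times the birth of deep-layer neurons, read 8.08, 8.14, 8.04, 8.06 and 8.18 in the WT mice and 8.08, 7.99, 7.96, 7.79 and 7.98 in the KO mice. 4 KO mice lay below all WT mice (log2 fold change −0.14, adjusted p = 0.416 from limma). Of its 7 probe sets, 4 were below 0 and 3 above, and of the 5 that were not dim, 4 were below.

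The other 7 genes of this group had log2 fold changes from −0.15 to 0.11. Foxp2, a forkhead factor linked to vocal learning, was at 0.11, and its 4 probe sets that were not dim all lay above 0. Syt6, a synaptotagmin, was at −0.15, and its 4 probe sets all lay below 0, but only 1 of them was not dim. Tle4, a corepressor of corticothalamic neurons, was at −0.041, Ntsr1, the neurotensin receptor whose promoter is used to mark those neurons, at −0.0061, and Sulf1, which trims heparan sulfate, at −0.017. Of the subplate genes, Cplx3, a complexin that regulates vesicle fusion, was at 0.087 and Nxph4, a ligand of neurexins, at −0.031.

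**Figure D4:**
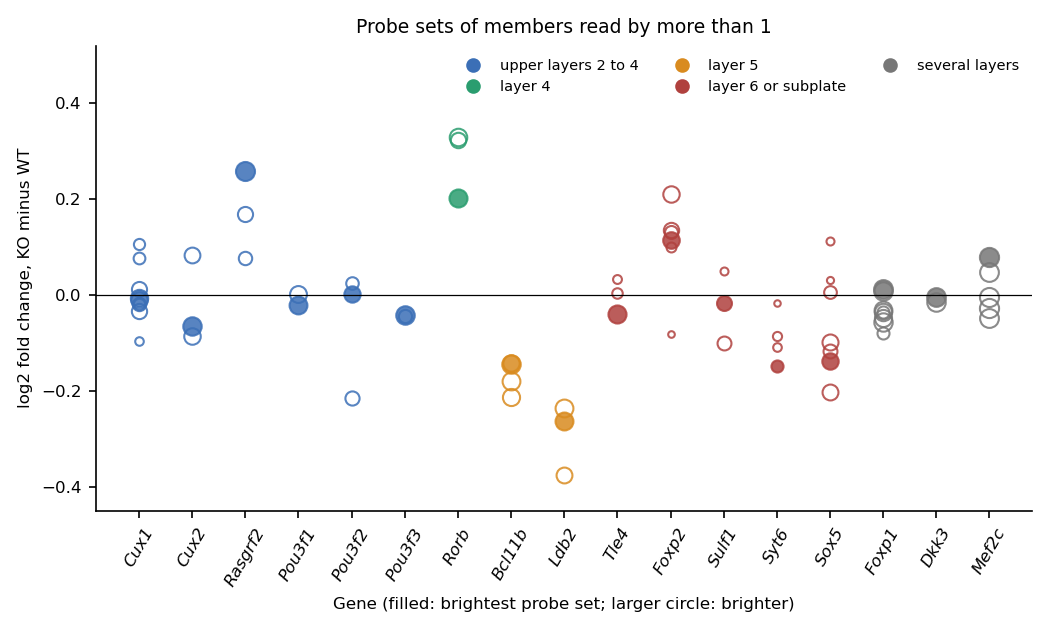
Log2 fold change, KO minus WT, of every probe set of the 17 layer genes read by more than 1, coloured by layer, with the brightest filled and larger circles for brighter probe sets. All probe sets of Rasgrf2 and Rorb lie above 0 and all of Bcl11b, Dkk3, Ldb2, Pou3f3 and Syt6 below. The other genes, among them Cux1, Sox5 and Mef2c, have probe sets on both sides. Only 1 probe set of Syt6 is not dim.

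Among the 6 genes of several layers the median log2 fold change was 0.0040, with 3 above 0 and 3 below. Neurod6, a basic helix-loop-helix factor of excitatory neurons also called Nex, read 9.60, 9.58, 9.63, 9.74 and 9.68 in the WT mice and 9.31, 9.58, 9.58, 9.47 and 9.36 in the KO mice. No KO mouse reached the WT range, although the lowest WT value, 9.583, and the highest KO value, 9.579, nearly met. The log2 fold change was −0.19 (standard error 0.061), the exact permutation p over the 10 mice was 0.00794, and the adjusted p was 0.288 from limma, so Neurod6 did not pass.

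Stard8 read 9.14, 9.23, 9.12, 8.91 and 8.98 in the WT mice and 9.27, 9.24, 9.17, 9.25 and 9.06 in the KO mice (log2 fold change 0.13, adjusted p = 0.591 from limma). Lmo4, a LIM-only factor that helps to separate callosal from corticospinal neurons, read 11.71, 11.79, 11.67, 11.85 and 11.71 in the WT mice and 11.57, 11.71, 11.69, 11.71 and 11.71 in the KO mice (log2 fold change −0.067, adjusted p = 0.744 from limma). Both overlapped between genotypes. Foxp1, a forkhead factor of layers 3 to 6, Dkk3, a secreted relative of the Dickkopf proteins, and Mef2c, an activity-regulated factor that limits synapse number, were at 0.012, −0.0042 and 0.080 on the log2 scale.

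The intervals cover the spread among mice for the brightest probe set only, and say little where that probe set was dim, as for Mdga1. For 29 of the 33 members the 95% confidence interval of the fold change stayed within 1.3-fold in either direction, a bound chosen after the values were seen. The exceptions were Rorb, Crym, Ldb2 and Rprm, none of which passed the test. The interval reached 0.093 to 0.31 to either side of the log2 fold change, with a median of 0.16.

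Other genes of the same layers and of excitatory neurons in general were counted in the same fit, 40 measured of 43 listed. Of these, 2 rose and 1 fell, where 0.764% of all genes were called. The lists were drawn up with earlier results of these data known, so the count is a description and not a result about layer genes. Lamp5, a lysosome-associated membrane protein of layer 2 and 3 neurons and of some interneurons, read 11.64 to 11.74 in the WT mice and 11.91 to 12.01 in the KO mice (log2 fold change 0.25, adjusted p = 0.0120 from limma). Nrn1, or neuritin, a membrane-anchored protein of excitatory neurons that promotes neurite growth, read 11.17 to 11.34 in the WT mice and 11.49 to 11.61 in the KO mice (log2 fold change 0.28, adjusted p = 0.0174 from limma). Leaving out WT replicate 4 or KO replicate 1, 2 or 3 took the adjusted p of Nrn1 past the threshold, up to 0.0549.

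Rspo1, a secreted enhancer of Wnt signalling found in layer 4, read 6.90 to 7.27 in the WT mice and 4.87 to 5.72 in the KO mice, a log2 fold change of −1.71 (adjusted p = 0.000126 from limma). Of the other genes on the layer 4 list, Plcxd2 was also below 0, at −0.14 (adjusted p = 0.596 from limma), and the remaining 4 lay above 0. Among those, Thsd7a was at 0.31 with no overlap between genotypes (adjusted p = 0.0919 from limma). In layer 6 and the subplate, Nr4a2, an orphan nuclear receptor and a known CREB target, was at −0.50, also with no overlap (adjusted p = 0.0992 from limma), and Moxd1 was at −0.29 (adjusted p = 0.238 from limma). The paper listed Nr4a2 among genes lower in these KO mice, at a corrected P just under 0.05 by moderated t-statistics. The present fit, with 1 probe set per gene, gave 0.71-fold, close to the fold change in the paper. Its adjusted p was above 0.05, so the call was not reproduced though the size of the change was.

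No gene of the other layer 5 list passed, and the smallest p there was that of Tcerg1l, at 0.12 (adjusted p = 0.431 from limma). Among genes of excitatory neurons in general the median log2 fold change was −0.031. Neurod1, a relative of Neurod6, was at 0.28 (adjusted p = 0.213 from limma), opposite in sign to Neurod6. Arpp21, a cAMP-regulated phosphoprotein, read 11.62 to 11.81 in the WT mice and 11.40 to 11.61 in the KO mice, with no overlap (log2 fold change −0.18, adjusted p = 0.257 from limma). In the other upper-layer list, the cadherin Cdh13 was at −0.24 (adjusted p = 0.184 from limma), opposite in sign to Lamp5. Calb1 was at 0.15 (adjusted p = 0.292 from limma), of the same sign as Lamp5. That list had 4 genes above 0 and 3 below.

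**Figure D5:**
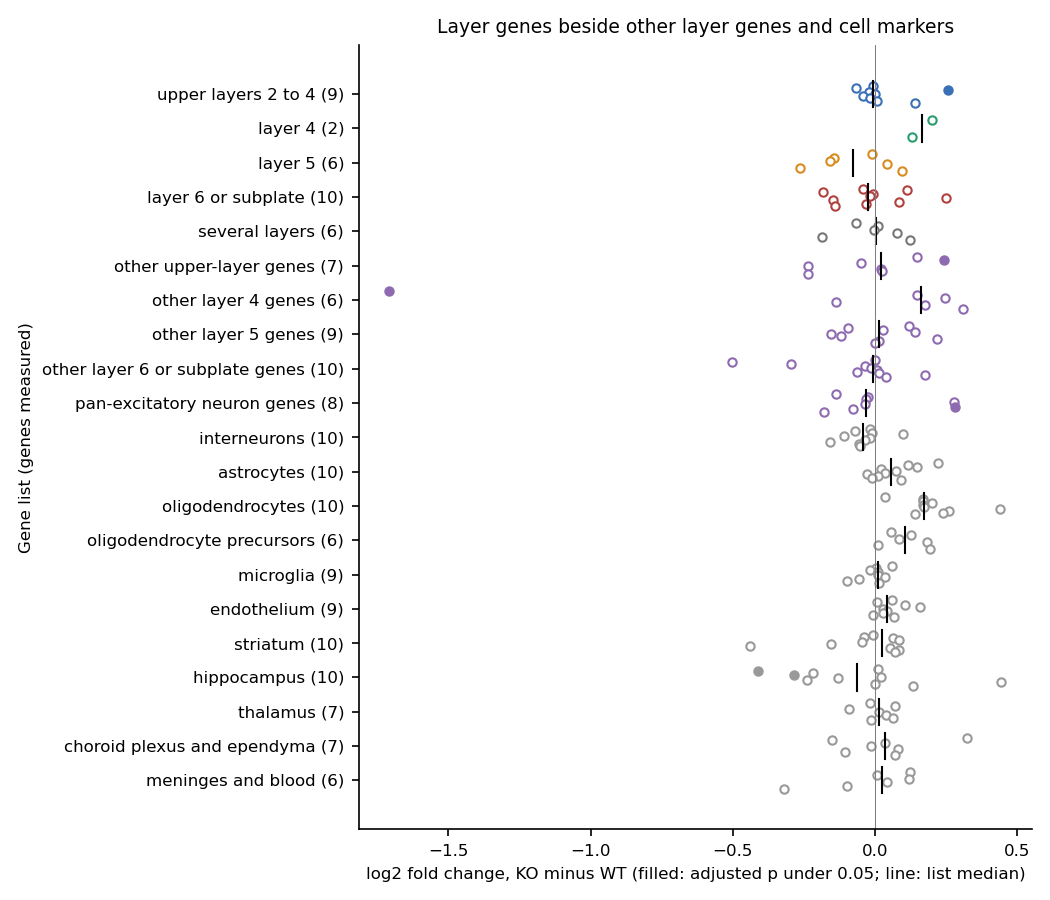
Log2 fold change, KO minus WT, of the layer genes by group, of other layer genes and of markers of other cell types and regions, with the number of genes measured after each list, filled points for an adjusted p under 0.05 and a line at the list median. Rasgrf2, Lamp5 and Nrn1 are the filled points above 0, and Rspo1 lies at −1.71. All 10 oligodendrocyte markers lie above 0.

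Markers of other cells and regions were set beside these values. All 10 measured oligodendrocyte markers were above 0 with a median of 0.17, and none passed. Their mean ran from 10.22 to 10.53 in the WT mice and from 10.47 to 10.79 in the KO mice. Other lists also leaned above 0 with none passing. Oligodendrocyte precursor markers had 6 above 0 and 0 below, astrocyte markers 8 and 2, and endothelial markers 8 and 1. Of 10 hippocampal markers, Fibcd1 was lower, with a log2 fold change of −0.41 (adjusted p = 0.00922 from limma), and so was Fam163b at −0.28 (adjusted p = 0.0188 from limma). Grp was at 0.45 with no overlap between genotypes (adjusted p = 0.0804 from limma). The list had 5 genes above 0 and 5 below, and its mean was 5.57 to 5.69 in the WT mice and 5.45 to 5.64 in the KO mice. The 10 interneuron markers leaned below 0, with 1 above and 9 below, a median of −0.043 and none passing.

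The marker means of oligodendrocytes, hippocampus and striatum were each put in the fit, and those of the other lists were not. Rasgrf2 stayed called in these 3 fits, at 0.33, 0.28 and 0.26 on the log2 scale. Rprm was at 0.064 with the oligodendrocyte mean, and Unc5d at 0.00090 with the hippocampal mean. Other values moved away from 0. With the oligodendrocyte mean the layer 5 median was −0.18 and the layer 6 or subplate median −0.077. With the hippocampal mean these medians were 0.0050 and 0.0081. Lamp5 and Nrn1 lost their calls with the oligodendrocyte mean (adjusted p = 0.125 and 0.190 from limma) and with the hippocampal mean (adjusted p = 0.0858 and 0.119 from limma). These 2 means themselves differed between genotypes, by 0.20 and −0.067 (KO minus WT, log2), and the hippocampal list holds Fibcd1 and Fam163b. Calls over all genes fell from 139 to 48 and 69 in these fits, so a lost call is not particular to Lamp5 or Nrn1. The part that these cells or regions had in the results was not tested.

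CREB binds the cAMP response element TGACGTCA and its shorter cores TGACG and CGTCA, so the promoters of the layer genes were read for those letters on both strands, from RefSeq windows of 250 bases before to 50 after each start (GRCm38.p6). Of the 34 genes, 24 had a window, 37 windows in all. None of these held the full site, which 1.79% of 32851 windows hold. A core was in 4 windows, or 10.8%, against 20.8% of all windows. Rasgrf2, the member that rose, is shown whole, on the minus strand at chr13:92131779-92132078, with its core in capitals 43 bases before the start.

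Rasgrf2: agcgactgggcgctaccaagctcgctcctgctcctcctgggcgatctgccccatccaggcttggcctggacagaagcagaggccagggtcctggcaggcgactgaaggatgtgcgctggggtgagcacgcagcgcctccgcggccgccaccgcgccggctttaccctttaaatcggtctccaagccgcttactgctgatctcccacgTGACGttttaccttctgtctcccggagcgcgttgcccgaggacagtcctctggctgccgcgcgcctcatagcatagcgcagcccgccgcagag

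The other 3 members with a core are shown as the core in capitals and 15 bases on either side, 224 bases before the start for Foxp1 (chr6:99028249-99028548, minus strand), 81 for Lhx2 (chr2:38339031-38339330, plus strand) and 177 for Ntsr1 (chr2:180499726-180500025, plus strand).
Foxp1: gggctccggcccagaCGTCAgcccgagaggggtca
Lhx2: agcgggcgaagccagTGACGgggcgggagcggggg
Ntsr1: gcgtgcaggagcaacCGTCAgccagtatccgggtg
Foxp1, Lhx2 and Ntsr1 had log2 fold changes of 0.012, 0.0094 and −0.0061, against 0.26 for Rasgrf2. A match of letters is a description of the window and not a binding site.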

How the data were processed

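Cortical RNA of each mouse, 5 per genotype, went on its own array. The log2 values are those of the authors, who first removed arrays of poor quality with the RACE package. The background correction and normalization are not given in the sources used here. Values lay between 2.14 and 13.90 without control probe sets and were used as deposited. The number of arrays limits the precision. The paper states that its experiments combined several batches of mice, and no batch is given for these arrays.

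Of 45101 probe sets, 64 controls were left out. Of the rest, 34945 named 1 gene, 932 several and 9160 none. Each of 18193 genes was represented by its brightest probe set naming that gene alone. Gene names came from the platform annotation, and identifiers of 34741 probe sets matched the RefSeq gene table of GRCm38.p6.

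KO was compared with WT in R 4.3.3 with limma 3.58.1 (lmFit, then eBayes), two-sided, with Benjamini-Hochberg correction over genes and a threshold of 0.05. The fit was run on simulated arrays with independent normal noise, which cannot show how it behaves with the noise of these arrays. Single genes also had an exact permutation test. The members, layer groups and gene lists were chosen with earlier results of these data known, so their counts are descriptions. Values of every array are given for members that passed, that did not overlap between genotypes, or that had the 3 smallest p of a layer group. From the other lists, genes that passed and up to 2 more with the smallest p are named, and the remaining members are given by their fold changes. The 23 alternatives changed the normalization, probe sets, variance prior, array weights, replicate block, correction or covariates, or left out 1 array.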

Additional observations from a re-analysis of the deposited data

Results flagged for a closer look

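In 6 of 78 groups of 5 arrays, 1 array stood far from the other 4 by Dixon's test, and chance alone flags about 1 group in 20. Pou3f2 read 7.57 in WT replicate 1 and 8.01 to 8.09 in the other WT mice. Lhx2 read 9.69 in KO replicate 4 and 9.50 to 9.52 in the other KO mice. Tle4 read 9.80 in WT replicate 5 and 9.44 to 9.54 in the others of its group. Lmo4 read 11.57 in KO replicate 1 and 11.69 to 11.71 in the others. Foxp1 read 10.80 in WT replicate 3 and 10.63 to 10.65 in the others. Lamp5 read 12.01 in KO replicate 1 and 11.91 to 11.92 in the other KO mice.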

How the results depend on the processing

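Rasgrf2 was called in 21 of 23 alternatives. The count of called members was 0 with the replicate block (adjusted p of Rasgrf2 0.0876 from limma) and 0 with the mean of all probe sets (0.137). Leaving out each array in turn left it at 1. The cause was not tested. The count over all genes, 139 as reported, was 236 with a trended and robust prior, 75 without moderation, 62 with the replicate block, 69 with the hippocampal and 48 with the oligodendrocyte marker mean as covariate. The median of the upper-layer group was 0.043 with the oligodendrocyte covariate, and that of the layer 5 group went from −0.077 to 0.0050 with the hippocampal and −0.18 with the oligodendrocyte covariate. Leaving out each array in turn put the layer 5 median between −0.11 and −0.010, the layer 6 or subplate median between −0.052 and 0.0095 (above 0 without KO replicate 5), the upper-layer median between −0.022 and 0.022 and that of all members between −0.026 and 0.0070. None of the 735 values of the other members under the alternatives was called, 678 kept the sign reported, and 17 of these members kept their sign throughout. Fam163b was called in 15 of 23 alternatives, with adjusted p up to 0.267, and lost its call without KO replicate 3 or WT replicate 1, 2 or 3 among others. Fibcd1 was called in 20 of 23, with adjusted p up to 0.198, Lamp5 in 20, up to 0.125, and Nrn1 in 16, up to 0.190. Deviations of same-numbered WT and KO arrays correlated at −0.26 to 0.060, and 0 of 5 WT arrays correlated best with the KO array of its number. These correlations show no pairing by number, but cannot exclude a shared litter or batch.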
